A study of Homo sapiens with 8 samples.

Results

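The 36 genes described here make cholesterol and fatty acids or control their making, and they were taken from the arrays as every non-control probe whose gene name in the array annotation was that of a member. All 36 of 36 names were found, among 41810 named genes, through 47 probes, and 8 members had more than 1 probe. They fall into 4 controllers of sterol regulatory element-binding proteins (SREBPs), 7 enzymes of the mevalonate and isoprenoid steps, 11 enzymes of squalene and the later sterol steps, 1 sterol transfer protein, 10 enzymes of fatty acid and glycerolipid synthesis and 3 targets of the liver X receptor (LXR).

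SREBPs are transcription factors that are held in the membrane of the endoplasmic reticulum (ER) while cholesterol is plentiful. When sterols run low, SCAP escorts them to the Golgi, where they are cut, and the freed part turns on genes of sterol and fatty acid synthesis, so that these genes tend to move as a programme. INSIG1 retains SCAP in the ER and is itself a target of SREBPs. LXR answers to oxidized sterols and turns on exporters of cholesterol such as ABCA1 and ABCG1, which stand on the opposite side of the balance.

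RNA of mock cells, labelled as having had no transfection, was in the Cy3 channel of each of 8 arrays, and RNA of the same line after transfection of a small RNA with Lipofectamine RNAiMAX was in the Cy5 channel. In the renal cancer lines A498 and 786-O the small RNA was mature miR-139-5p or miR-139-3p, so that each strand had 2 arrays which differ in cell line. In the breast cancer line MDA-MB-231 it was si-GINS1_1 or si-GINS1_2, called siRNA 1 and siRNA 2 here, so that the 2 arrays of this group differ in the siRNA. The colorectal cancer line HCT116 received miR-490-5p on 1 array and the opposite strand, miR-490-3p, on the other. Mock cells had no lipid reagent and no control small RNA by the labels, so the act of transfection, the small RNA and the unswapped dyes cannot be told apart on an array. No label speaks of separate cultures, and p-values then measure only the spread between these arrays, which may be technical.

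Each comparison sets the transfected cells against mock cells of their own line. In all that follows a ratio is the log2 of transfected over mock, a value of 1 is a doubling, and "called" means an adjusted p under 0.05 in limma over all probes tested. Arrays without a replicate had no test, and there a ratio at or beyond 1 in either direction was counted as a rule of size.

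The mature strands transfected, from RefSeq on GRCh38.p14, are shown because their seeds (bases 2 to 8, in capitals) decide which transcripts they pair with. Both strands of miR-139 lie on chromosome 11, minus strand, at chr11:72615102-72615124 for miR-139-5p and chr11:72615066-72615088 for miR-139-3p. Those of miR-490 lie on chromosome 7, plus strand, at chr7:136903205-136903224 for miR-490-5p and chr7:136903242-136903263 for miR-490-3p. No seed is shared between the 4 strands.
miR-139-5p: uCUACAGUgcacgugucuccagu
miR-139-3p: uGGAGACGcggcccuguuggagu
miR-490-5p: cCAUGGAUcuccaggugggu
miR-490-3p: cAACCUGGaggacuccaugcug

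The 7-base match to each seed was looked for in the probe sequences, on the strand of the transcript. It was ACTGTAG for miR-139-5p, CGTCTCC for miR-139-3p, ATCCATG for miR-490-5p and CCAGGTT for miR-490-3p. Of the 47 probes of the members 0 held any of them, and of all 58201 probes 0.32%, 0.168%, 0.448% and 0.39% did. A probe covers a small piece of a transcript, so this says nothing of sites elsewhere in the members.

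Promoters of the members are shown because the programme is driven through them. RefSeq starts on GRCh38.p14 were given for 31 of the 36 members, as 250 bases before and 50 after the start. Not matched were ACAT2, FDFT1, SQLE, FASN and ABCG1. The sterol regulatory element, searched as TCACNCCAC on both strands, was found in 1 of 31 members (SREBF2) and in 1.39% of the 27305 genes with a promoter. CCAAT, the site of the factor NF-Y, was found in 23 of 31 members against 39.7% of genes, and GGGCGG, the GC box, in 29 of 31 against 48.3%. CACGTG, an E-box, was found in 6 of 31 against 8.77%, and these were SCAP, INSIG1, LSS, SC5D, ELOVL5 and ABCA1. A match is a description of the letters and not a site shown to be used.

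The windows printed run from 220 to 31 bases before the start, 5′ to 3′ on the strand of the gene, with the sterol regulatory element, the CCAAT box on either strand and the E-box in capitals. They are those of SREBF2, which encodes an SREBP and is also a target of SREBPs, of its targets INSIG1 and HMGCS1, and of DHCR7, the member that lay farthest apart between the strands of miR-490. They lie at chr22:41832885-41833074 (plus) for SREBF2, chr7:155297658-155297847 (plus) for INSIG1, chr5:43313443-43313632 (minus) for HMGCS1 and chr11:71448424-71448613 (minus) for DHCR7. In SREBF2 the sterol regulatory element begins 133 bases before the start and the CCAAT match 106 bases before it.
SREBF2: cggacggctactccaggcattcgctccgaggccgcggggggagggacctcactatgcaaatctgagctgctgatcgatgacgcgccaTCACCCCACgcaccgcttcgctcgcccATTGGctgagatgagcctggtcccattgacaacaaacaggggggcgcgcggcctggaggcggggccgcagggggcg
INSIG1: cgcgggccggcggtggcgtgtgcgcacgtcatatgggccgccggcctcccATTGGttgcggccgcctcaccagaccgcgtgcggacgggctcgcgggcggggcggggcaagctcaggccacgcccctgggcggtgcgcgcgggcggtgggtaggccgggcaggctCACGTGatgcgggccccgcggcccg
HMGCS1: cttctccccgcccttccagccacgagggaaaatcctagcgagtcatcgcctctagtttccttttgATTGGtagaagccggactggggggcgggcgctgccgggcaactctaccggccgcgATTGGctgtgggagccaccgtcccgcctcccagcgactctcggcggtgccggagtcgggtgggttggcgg
DHCR7: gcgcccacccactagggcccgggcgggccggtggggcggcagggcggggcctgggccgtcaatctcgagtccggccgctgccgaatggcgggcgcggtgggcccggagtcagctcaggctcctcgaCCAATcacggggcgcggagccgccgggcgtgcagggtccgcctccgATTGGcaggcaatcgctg

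Each array held 58201 probes, of which 24980 to 29685 stood clearly above background in either channel. The mock channels of both arrays of a line differed with an SD between 0.07 and 0.10 log2 units over genes, and no member differed by more than 0.30. GINS1, the target of the siRNAs, had a ratio of -1.31 with siRNA 1 and -1.92 with siRNA 2, and between -0.11 and 0.55 on the other 6 arrays. Of the markers of each tissue, PAX8 had a higher log2 Cy3 in A498 and 786-O (8.13 and 8.06) than in MDA-MB-231 and HCT116 (6.71 and 6.31), VIM was at 6.77 in HCT116 against 14.6 to 15.1 elsewhere, and CDX2 was well above background in HCT116 only. Of the other intestinal markers, VIL1 was not well above background in any line, HCT116 included, and CDX1 was at 6.81 in HCT116 against 7.12 in A498 and 6.87 in 786-O.

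Of the 36 members, 33 were well above background on all 8 arrays. TM7SF2 and SC5D were so on 5 arrays and ABCG1 on 4, and the arrays on which they were dim were renal ones. On the renal arrays the members lay close to 0. On both si-GINS1 arrays and on the miR-490-5p array most lay below 0, and on the miR-490-3p array they did not. The median over the members was 0.07 and 0.14 in A498 (miR-139-5p, then miR-139-3p), 0.01 and 0.03 in 786-O, -0.35 with siRNA 1, -0.20 with siRNA 2, -0.37 with miR-490-5p, then 0.09 under miR-490-3p. The median of all genes lay between 0.0011 and 0.02 on every array. Under median centring of each array the members' medians turned to 0.10 with siRNA 1 and 0.04 with siRNA 2, and kept their sign on the other 6 arrays. The median of all genes was then 0.18 with siRNA 1 and 0.08 with siRNA 2, above that of the members.

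**Figure D1:**
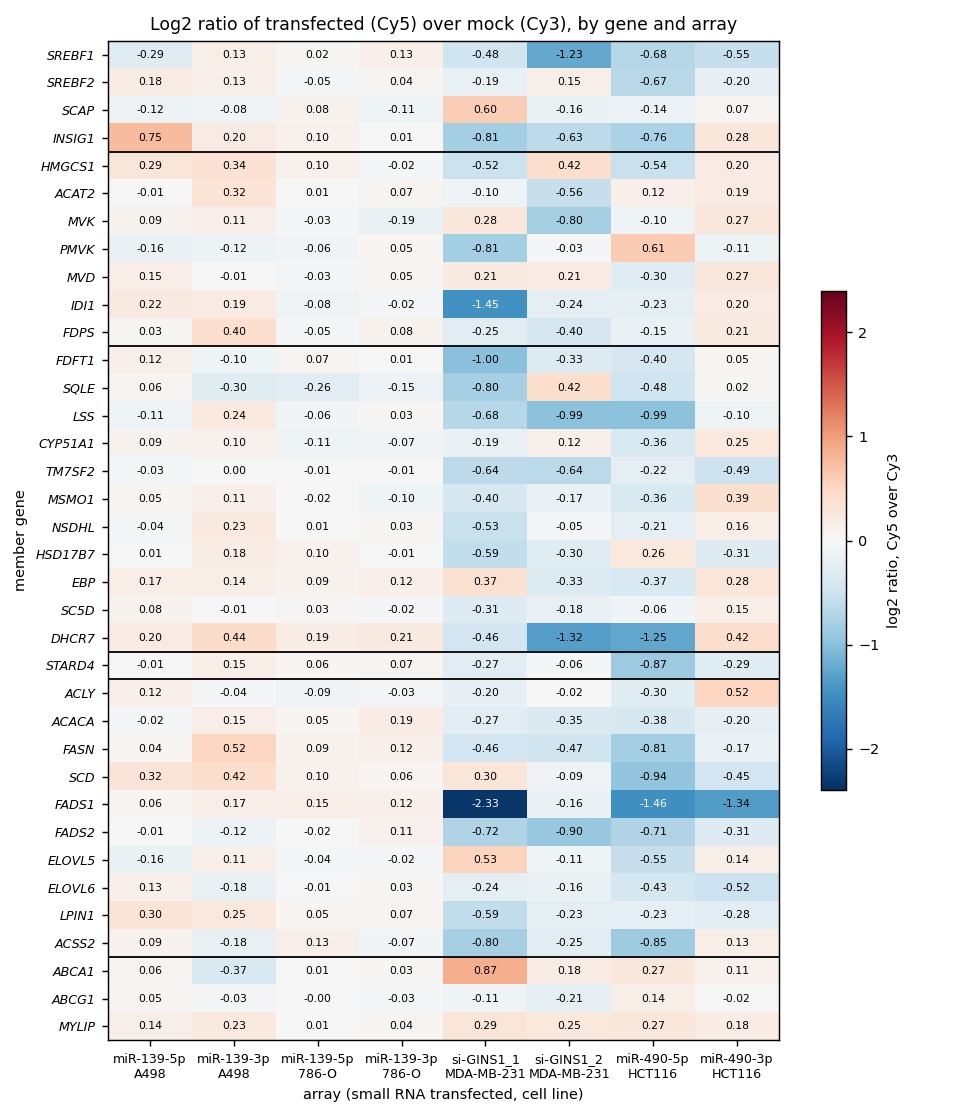
Log2 ratio of transfected (Cy5) over mock (Cy3) for each of the 36 members (rows, grouped by role with black lines) on each of the 8 arrays (columns), through the probe that stands for the gene, with blue below 0 and red above. The renal columns are pale, and FADS1 is the darkest cell, at -2.33 with siRNA 1.

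With the strands of miR-139 no member was called. limma called 0 of 33 members for miR-139-5p, against 0.0168% of all genes, and 0 of 33 for miR-139-3p, against 0%. At an unadjusted p under 0.05 there were 1 and 3 members, beside 495 of 17824 and 851 of 17520 genes. Setting miR-139-3p against miR-139-5p cancels any bias of the dyes that all arrays share. It also called 0 of 33 members, against 0% of genes, with 0 members at an unadjusted p under 0.05, beside 121 of 17075 genes. By the rule of size 0 members passed on each of the 4 renal arrays, where 0.0686% and 0.205% of genes did in A498 and 0.0369% and 0.0262% in 786-O (miR-139-5p, then miR-139-3p).

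On the renal arrays 34 of the 36 members stayed within 0.5 log2 units of 0 throughout, and the exceptions were INSIG1 and FASN. INSIG1, the sterol-sensing brake on SCAP, read 0.75 (5p strand) and 0.20 (3p strand) in A498, with 0.10 and 0.01 for 786-O. The high value was on 1 array (it passed 1 under median centring), and the miR-139-5p arrays of both lines had a mean of 0.42 ± 0.46 (SD, n = 2). FASN, the fatty acid synthase, read 0.04 (5p strand) and 0.52 (3p strand) in A498, with 0.09 and 0.12 for 786-O. Its high value was again on a single A498 array, and with the other strand than for INSIG1. Above 0 on all 4 renal arrays were 8 members, and below 0 on all 4 were 0. The share of all genes that did so was not counted. On single renal arrays 46.9% to 49.4% of all genes lay below 0.

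With si-GINS1, limma called 4 of 36 members, all lower, against 7.49% of all genes tested, a share not far from that background. They were LSS, TM7SF2, FADS2 and ACACA, from the later sterol steps (the first pair) and from fatty acid synthesis. Over all genes the calls were split into 810 lower and 747 higher. Another 18 members had an unadjusted p under 0.05 without passing the adjustment. With the called ones these were 22 of 36 members, beside 5642 of 20791 genes.

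LSS is lanosterol synthase, which closes the epoxide of squalene into the first sterol. Its ratio was -0.68 with siRNA 1 and -0.99 with siRNA 2, and it fell by 0.83 ± 0.22 (SD, n = 2; SE 0.09, limma adjusted p 0.0227). It was between -0.11 and 0.24 on the renal arrays, at -0.99 with miR-490-5p, then at -0.10 under miR-490-3p. The si-GINS1 arrays did not overlap the renal ones. A second LSS probe (chr21:47608567-47608626 on hg19) went the other way on the si-GINS1 arrays, at 1.04 and 0.33, and the median of both probes was not called (limma adjusted p 0.77).

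TM7SF2 is a sterol reductase of the steps after lanosterol. Its ratio was -0.64 with both siRNAs, and it fell by 0.64 ± 0.0024 (SD, n = 2; SE 0.04, limma adjusted p 0.0129). On the renal arrays it was between -0.03 and 0.0036, dim on 3 of the 4, and it was at -0.22 with miR-490-5p, then -0.49 under miR-490-3p. It was the lowest in adjusted p of all members. The fit takes its spread in part from the renal arrays, where these dim ratios had an SD of 0.012 (miR-139-5p) and 0.013 (miR-139-3p). With only the si-GINS1 arrays in the fit the limma adjusted p was 0.523.

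FADS2 is the delta-6 desaturase of polyunsaturated fatty acids. Its ratio was -0.72 with siRNA 1 and -0.90 with siRNA 2, and it fell by 0.81 ± 0.13 (SD, n = 2; SE 0.08, limma adjusted p 0.0174). It was between -0.12 and 0.11 on the renal arrays, at -0.71 with miR-490-5p, then at -0.31 under miR-490-3p. All 4 MDA-MB-231 and HCT116 arrays thus lay below all 4 renal ones.

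ACACA is acetyl-CoA carboxylase, the committed step of fatty acid synthesis. Its ratio was -0.27 with siRNA 1 and -0.35 with siRNA 2, and it fell by 0.31 ± 0.06 (SD, n = 2; SE 0.05, limma adjusted p 0.0345). It was between -0.02 and 0.19 on the renal arrays, at -0.38 with miR-490-5p, then at -0.20 under miR-490-3p. A second ACACA probe was at 0.19 with siRNA 1 and -0.27 with siRNA 2, so the probes lay on opposite sides of 0 for siRNA 1. The median of both probes was -0.18 with si-GINS1 and was not called (limma adjusted p 0.217). In HCT116 the second probe read -0.09 (5p strand) and -0.32 (3p strand), so the probes put the strands in opposite order.

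With only the si-GINS1 arrays in the fit 0 members were called, beside 0 of 20797 genes, at the same mean ratios. With the scanner log ratio 0 members were called, beside 58 of 20791 genes. The ratios were then -0.84 for LSS, -1.04 for TM7SF2, -0.82 for FADS2 and -0.33 for ACACA. Without the siRNA 1 array they were -0.99, -0.64, -0.90 and -0.35 in the same order, and without the siRNA 2 array -0.68, -0.64, -0.72 and -0.27. Each of these last fits keeps 1 siRNA array, whose spread is then assumed to be that of the other groups, so no count of calls is given. Under median centring, where the all-gene median was 0.18 with siRNA 1 and 0.08 with siRNA 2, only TM7SF2 stayed lower, MYLIP was called higher, ACACA turned to 0.18, and the split over all genes became 229 lower and 2163 higher.

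By the rule of size, siRNA 1 had 3 members at or below -1 and siRNA 2 had 2, with none in common, against 3.08% and 1.92% of genes in either direction. With siRNA 1 they were FADS1, IDI1 and FDFT1, and with siRNA 2 they were DHCR7 and SREBF1. No member lay at or above 1. Under median centring FADS1 alone stayed at or below -1 with siRNA 1, where ABCA1, EBP and SCAP passed 1 upward, and with siRNA 2 the count was 0. Below 0 with both siRNAs were 24 of 36 members, where 27.4% of 20797 genes were. Above 0 with both were 3 members, where 30.7% of genes were. The siRNA arrays share the line and may share its mock, and by the median centring of each array 15 of 36 members lay below 0 with each siRNA. Below the median of all genes were then 19 of 36 members with each siRNA.

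FADS1, the delta-5 desaturase that acts beside FADS2 (chr11:61567126-61567185 on hg19), had the lowest ratio of any member. It was at -2.33 with siRNA 1 and -0.16 with siRNA 2, at -1.46 with miR-490-5p, then -1.34 under miR-490-3p, and between 0.06 and 0.17 on the renal arrays. Of the arrays of a line, those of the siRNAs lay farthest apart for it, and the mean of -1.24 ± 1.54 (SD, n = 2) was not called (limma adjusted p 0.204). IDI1, the isomerase that makes dimethylallyl diphosphate, was at -1.45 with siRNA 1 and -0.24 with siRNA 2, at -0.23 and 0.20 with the miR-490 strands, 5p first, and between -0.08 and 0.22 on the renal arrays. FDFT1, squalene synthase, was at -1.005 and -0.33 with the siRNAs, at -0.40 and 0.05 with the miR-490 strands, and between -0.10 and 0.12 on the renal arrays. The lowest array for each of these 3 was that of siRNA 1.

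DHCR7, the reductase of the last step to cholesterol, was at -0.46 with siRNA 1 and -1.32 with siRNA 2, a mean of -0.89 ± 0.61 (SD, n = 2) that was not called (limma adjusted p 0.0757). It was at -1.25 with miR-490-5p, then 0.42 under miR-490-3p, and between 0.19 and 0.44 on the renal arrays. DHCR7 was low on 1 siRNA array and 1 miR-490 array and above 0 on the other miR-490 array and all renal ones. SREBF1, which encodes the SREBP that favours fatty acid genes, was at -0.48 with siRNA 1 and -1.23 with siRNA 2 (limma adjusted p 0.069), at -0.68 and -0.55 with the miR-490 strands, 5p first, and between -0.29 and 0.13 on the renal arrays. A second SREBF1 probe, in a nearby stretch of the same transcript, was at 0.16 and 0.04 with the siRNAs, so the low value belongs to 1 of its probes.

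The other controllers were less alike. INSIG1 was at -0.81 and -0.63 with the siRNAs, a mean of -0.72 that was not called (limma adjusted p 0.0737). SCAP was at 0.60 with siRNA 1 and -0.16 with siRNA 2, and within 0.12 of 0 on the renal arrays. SREBF2, which encodes the SREBP that favours sterol genes, was at -0.19 and 0.15 with the siRNAs and between -0.05 and 0.18 on the renal arrays. Of these 4 genes, only SREBF1 and INSIG1 lay below 0 with both siRNAs.

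Among the enzymes that lead each branch the siRNAs went different ways. HMGCS1, which makes HMG-CoA, was at -0.52 with siRNA 1 and 0.42 with siRNA 2. SQLE, squalene epoxidase, was at -0.80 and 0.42. FASN was at -0.46 and -0.47, and its mean of -0.46 was not called (limma adjusted p 0.0659), while SCD, the stearoyl-CoA desaturase, was at 0.30 and -0.09. So of these 4 only FASN was on the same side with both siRNAs. On the renal arrays HMGCS1 was between -0.02 and 0.34, SQLE between -0.30 and 0.06 and SCD between 0.06 and 0.42.

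The direct difference of siRNA 2 minus siRNA 1 passed 1 log2 unit for 4 of 36 members, against 5.46% of genes. It was 2.17 for FADS1, 1.22 for SQLE and 1.21 for IDI1, and for MVK, mevalonate kinase, it was -1.08. The median difference over the members was 0.04 with 18 members on each side. The number of members at or beyond 1 was 7 under median centring, where DHCR7, SCAP and SREBF1 joined at the lower end.

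**Figure D2:**
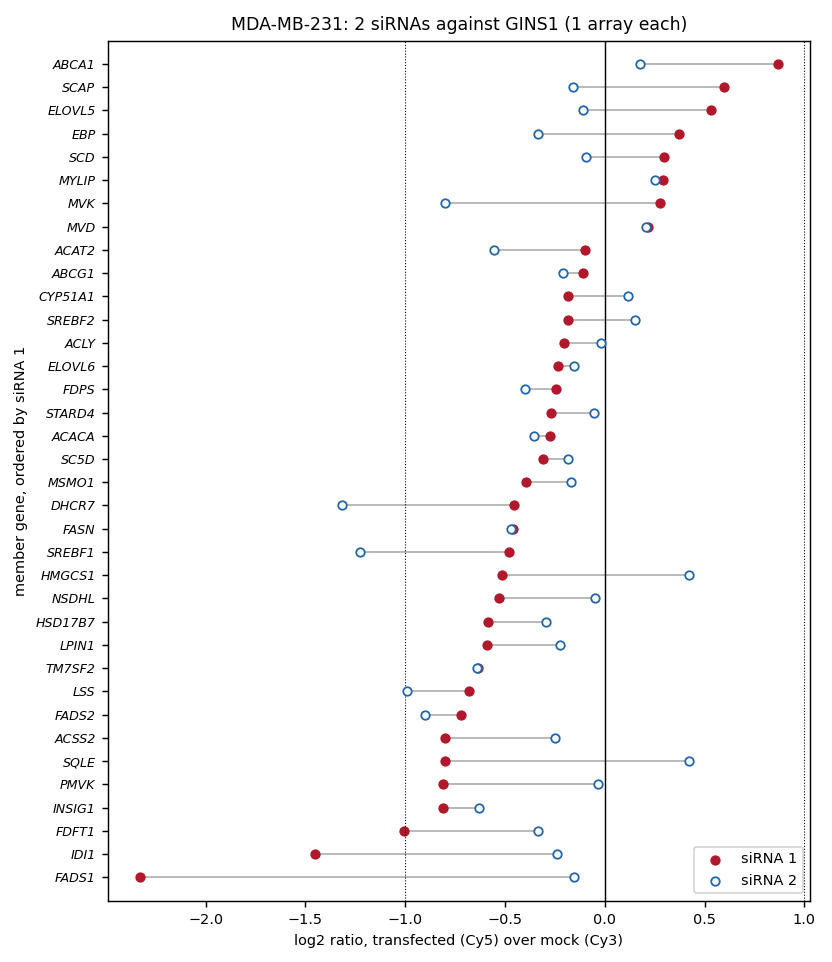
Log2 ratio over mock of each member with siRNA 1 (filled) and siRNA 2 (open) in MDA-MB-231, ordered by siRNA 1, with dotted lines at -1 and 1 and a grey line joining the 2 arrays of a gene. FADS1 spans 2.17 units, while TM7SF2, FASN and MVD have both points nearly on top of each other.

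Leaving aside the LXR targets, the 17 other members stayed within 1 log2 unit of 0 on every array. On the renal arrays all of them lay between -0.19 and 0.40. With siRNA 1 they lay between -0.81 for PMVK, phosphomevalonate kinase, and 0.53 for ELOVL5, a fatty acid elongase. A second ELOVL5 probe was at -0.18 with siRNA 1, and at -0.52 under miR-490-3p where the first was at 0.14. With siRNA 2 the ends were -0.80 for MVK and 0.21 for MVD, which makes isopentenyl diphosphate. With miR-490-5p the ends were -0.87 for STARD4 and 0.61 for PMVK, and under miR-490-3p they were -0.52 for ELOVL6, a further elongase, and 0.52 for ACLY. The rest of these members, ACAT2, FDPS, CYP51A1, MSMO1, NSDHL, HSD17B7, EBP, SC5D, LPIN1 and ACSS2, lay between these ends. None of the 17 was called with si-GINS1.

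The 3 LXR targets were not called with si-GINS1. ABCA1, the exporter of cholesterol to lipoproteins, was at 0.87 with siRNA 1 and 0.18 with siRNA 2 (limma adjusted p 0.169), and between -0.37 and 0.06 on the renal arrays. Its second probe was at 0.51 and 0.07 with the siRNAs. MYLIP, the ligase that marks lipoprotein receptors for destruction, was at 0.29 and 0.25 (limma adjusted p 0.0834), and above 0 on all 8 arrays, between 0.01 and 0.29. ABCG1, a further exporter, was at -0.11 and -0.21 with the siRNAs and within 0.05 of 0 on the renal arrays, where it was dim. ABCG1 was thus below 0 and the other two above 0 with both siRNAs, and all 3 stayed within 1 log2 unit on every array.

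In HCT116 the strands of miR-490 differed in the members. With miR-490-5p, 30 of 36 members lay below 0, where 46.6% of genes did, and with miR-490-3p 15 of 36 did, where 48.0% of genes did. The side changed from below 0 with miR-490-5p to above 0 with miR-490-3p in 18 of 36 members, where 19.5% of 20241 genes did so. There is 1 array of each strand, so the difference has no replicate and no test. The miR-490-5p array had a median Cy3 background of 17, against 14 on every other array. Its median Cy3 brightness was 25.0, against 21.5 on the miR-490-3p array and 19.8 to 21.7 elsewhere. The part of this in the difference was not tested.

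By the rule of size 2 of 36 members passed with miR-490-5p (FADS1 and DHCR7, both lower), against 1.41% of genes, and 1 of 36 with miR-490-3p (FADS1, lower), against 1.08%. Both counts are small, and more members lay moderately low. At or below -0.5 were 13 of 36 members with miR-490-5p, beside 1180 of 20957 genes, and 3 of 36 under miR-490-3p, beside 816 of 21267. LSS at -0.99, SCD at -0.94, STARD4 (a carrier of sterols between membranes) at -0.87, ACSS2 (which activates acetate) at -0.85 and FASN at -0.81 lay just inside -1 with miR-490-5p. With a normexp offset of 10 the count at or beyond 1 was 6, and with the scanner log ratio it was 7.

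By role, the 4 controllers had a median of -0.68 with miR-490-5p, then -0.06 under miR-490-3p. The 10 fatty acid and glycerolipid enzymes had -0.63 and -0.24, and all 10 lay below 0 with miR-490-5p. The 11 later sterol enzymes had -0.36 and 0.15, and the 7 mevalonate enzymes -0.15 and 0.20. Each of these roles was lower with miR-490-5p than with miR-490-3p. Of the 3 LXR targets, ABCA1 and ABCG1 were each dim in a channel of these arrays, and no order of the strands is given for them.

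Of the controllers, INSIG1 was at -0.76 with miR-490-5p, then 0.28 under miR-490-3p, SREBF1 at -0.68 and -0.55, SREBF2 at -0.67 and -0.20, and SCAP at -0.14 and 0.07. INSIG1 and SCAP were on opposite sides of 0 with the strands, SCAP close to 0 with both. Of the enzymes, HMGCS1 was at -0.54 and 0.20, SQLE at -0.48 and 0.02, FASN at -0.81 and -0.17, and SCD at -0.94 and -0.45. With miR-490-5p all 4 lay below 0, and under miR-490-3p FASN and SCD did. ABCA1 was at 0.27 and 0.11, MYLIP at 0.27 and 0.18, and ABCG1 at 0.14 and -0.02, and the ABCA1 mock was not well above background in HCT116.

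Subtracting the miR-490-5p ratio from the miR-490-3p ratio, whereby any bias of a probe between dyes drops out, left a difference above 0 for 28 of 36 members, where 49.6% of genes were. Its median was 0.42 over the members and -0.0016 over all genes. DHCR7 at 1.68 and INSIG1 at 1.03 passed the rule of size, 2 of 36 against 1.3% of genes. ACSS2 at 0.99, LSS at 0.89 and ACLY (which makes cytosolic acetyl-CoA) at 0.82 followed without passing it. FADS1, low with both strands, had a difference of 0.12. With a normexp offset of 10 or under median centring 4 members passed, and with the scanner log ratio 6.

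**Figure D3:**
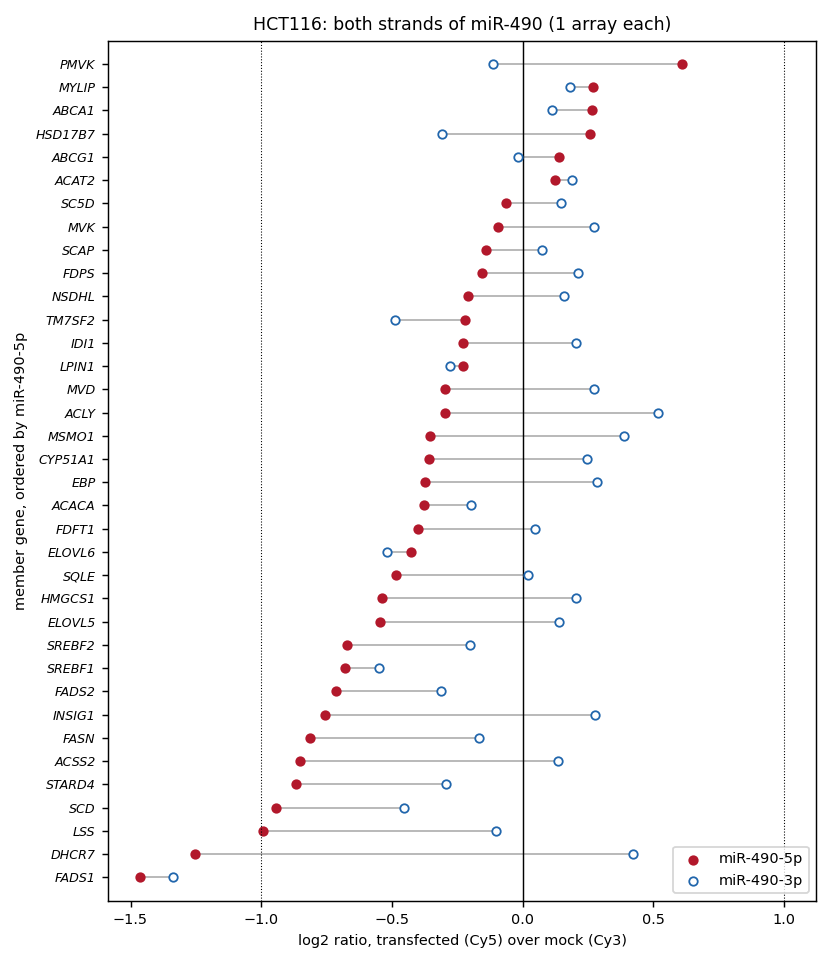
Log2 ratio over mock of each member with miR-490-5p (filled) and miR-490-3p (open) in HCT116, ordered by miR-490-5p, with dotted lines at -1 and 1 and a grey line joining the 2 arrays of a gene. Most open points lie to the right of the filled one of the same gene, DHCR7 from -1.25 to 0.42, while FADS1 is low with both.

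Genes of the unfolded protein response and of the ATF4 response lay low on the HCT116 arrays as well. Of 12 such genes all 12 lay below 0 with both miR-490 strands, with medians of -1.59 (miR-490-5p) and -1.04 (miR-490-3p), and their medians on the other 6 arrays lay between -0.17 and 0.38. HSPA5, the chief chaperone of the ER, was at -2.35 with miR-490-5p, -1.41 with miR-490-3p, 1.63 with siRNA 1 and -0.48 with siRNA 2. All 12 were lower with miR-490-5p than with miR-490-3p, by a median of 0.56, and 3 of them, DDIT3, TRIB3 and HERPUD1, were called lower in HCT116 than in the other lines (limma adjusted p 0.0368, 0.0494 and 0.0379). Their part in the members' ratios was not tested. Among markers of cell type, the 3 epithelial markers had a median of -0.70 with miR-490-5p, -0.05 with miR-490-3p and -0.62 with siRNA 2, and EPCAM was at -1.35 with siRNA 2. Their part was not tested either.

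Each line was also set against the other 3 over both of its arrays, whatever the small RNA, which takes out a dye bias shared by all arrays. limma called 0 of 33 members in each of the 4 comparisons, against 0% of genes for A498, 0% for 786-O, 1.48% for MDA-MB-231 (157 lower and 78 higher, and 7 and 6 under median centring) and 0.653% for HCT116. At an unadjusted p under 0.05 there were 6, 5, 12 and 5 members, beside 747, 737, 3148 and 2464 of 15915 genes. The lowest adjusted p were 0.0725 for FADS2 in MDA-MB-231, at -0.63, and 0.0912 for SCD in HCT116, at -0.88. A fit without 1 siRNA array keeps a single MDA-MB-231 array. The count of members called then changed, as did that of all genes, and neither is given.

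A change common to transfection in any line was asked for with the mean of both arrays of each line, as 4 values against 0. limma called 0 of 33 members, against 0.0251% of genes. Beside 1748 of 15915 genes, 2 members had an unadjusted p under 0.05. These were SQLE, at -0.19, and MYLIP, at 0.18, with adjusted p of 0.405 and 0.478. No member was called when any 1 line was left out. Over all genes the split of 4 lower and 0 higher became 8 and 102 under median centring.

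Other genes of the pathway, in lists without the members, give the surroundings of these values. With si-GINS1, limma called 2 of 9 further genes of SREBP control, both higher, which were PAQR3 (a Golgi anchor of SCAP) at 0.90 and RNF145 (a ligase that acts on SCAP) at 0.87. It called 1 of 13 genes of sterol transport and storage, SOAT1 (which esterifies cholesterol) at 0.51, higher. Of 17 genes of fatty acid supply and elongation 2 were lower, ACSL3 (an acyl-CoA synthetase) at -1.40 and SLC25A1 (the citrate carrier) at -0.58. Of 13 genes of glycerolipid synthesis and lipid droplets 2 were lower, PNPLA3 at -1.27 and PLIN3 at -0.40, and 3 were higher, GPAM at 0.61, DGAT1 at 0.38 and AGPAT3 at 0.37. Of 12 genes of fatty acid oxidation 1 was called, HADHA at 0.42, higher, and of 9 further LXR factors and targets 0 were, with 3 at an unadjusted p under 0.05. Each count of calls stands beside the 7.49% of all genes, and that of unadjusted p beside 5642 of 20791 genes.

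Of the same lists some genes passed the rule of size on single arrays. HSD17B12, a reductase of fatty acid elongation, was at -2.55 with siRNA 1 and -0.74 with siRNA 2, and ACSL3 was at -1.83 and -0.98. LPIN2, a phosphatidate phosphatase, was at -1.44 with siRNA 1 and 0.56 with siRNA 2. MBTPS1, the protease that makes the first cut in SREBPs, was at -1.17 with miR-490-5p, then -0.22 under miR-490-3p. With siRNA 2, RXRA (the partner of LXR) was at -1.01 and ACACB (a second acetyl-CoA carboxylase) at -1.01.

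The mock cells themselves differed in these genes. A range of 1 log2 unit or more between the highest and lowest line was seen in 29 of 36 members, where 28.4% of 22234 genes had it. MDA-MB-231 was the highest line for 20 members and HCT116 for 12, and A498 and 786-O were each the lowest for 16. Both mock channels of a line count as 1 sample here, with no test, and their difference stayed at or below 0.30 for every member. Levels are log2 Cy3, comparable for a gene between lines and not between genes.

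FADS2 had the widest range among members well above background in all lines, with 11.4 in MDA-MB-231, 9.34 in 786-O, 7.70 in A498 and 7.45 in HCT116, a 15.7-fold span. FASN was at 11.2 in HCT116, 9.58 in MDA-MB-231, 7.44 in A498 and 7.42 in 786-O, a 14.0-fold span. The renal lines did not differ for FASN beyond the mock channels' own difference of up to 0.17. LSS was at 10.7 in MDA-MB-231, 9.22 in HCT116, 7.65 in 786-O and 7.28 in A498, and DHCR7 was at 10.96, 10.9, 8.87 and 7.72 in the same order. INSIG1 was at 9.91 in MDA-MB-231, 9.04 in HCT116, 7.29 in A498 and 6.85 in 786-O. All of these but FADS2 were higher in both MDA-MB-231 and HCT116 than in both renal lines.

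Members with the opposite order were few. ABCA1 was at 9.997 in A498, 8.65 in 786-O and 7.64 in MDA-MB-231 and was not well above background in HCT116, so that A498 was at least 17.9-fold higher than HCT116. SQLE was highest in 786-O at 10.2 and lowest in MDA-MB-231 at 8.55. ACLY and SCAP differed by less than 0.5 log2 units over the lines. MDA-MB-231 and HCT116 each had their own small RNAs, so line and small RNA cannot be told apart in their ratios above. A498 and 786-O received the same strands of miR-139.

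**Figure D4:**
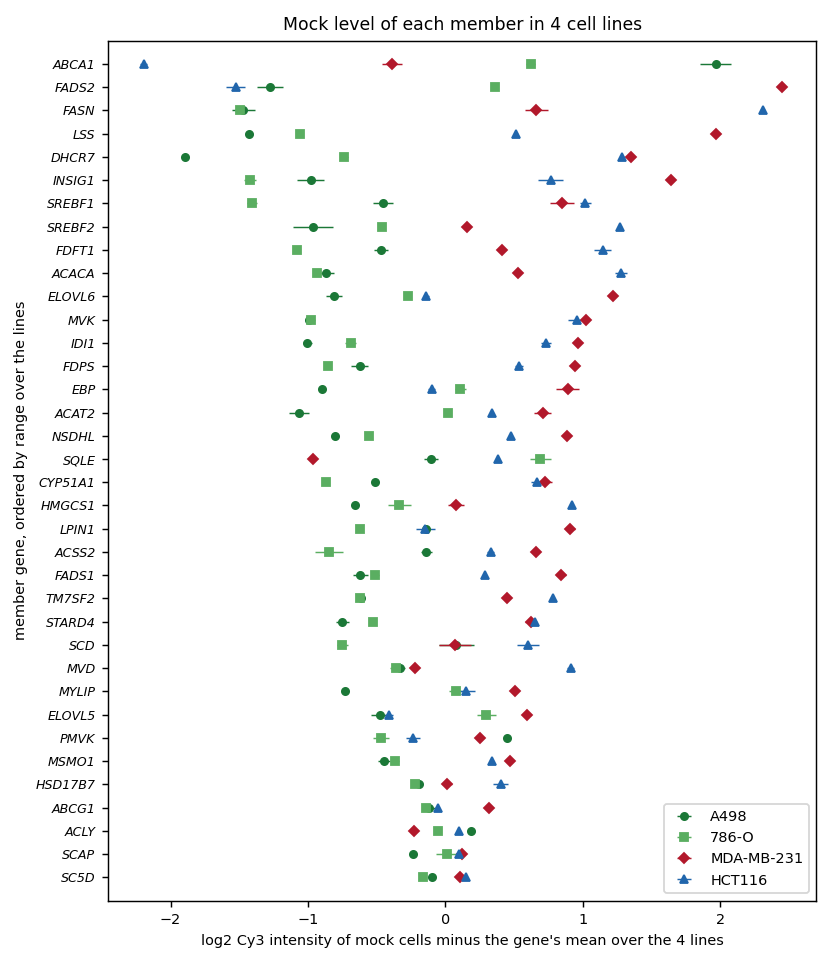
Log2 Cy3 intensity of mock cells in each of the 4 lines, as the difference from the gene's own mean over the lines, for each member (rows, ordered by range). Bars span the difference of both mock channels of the line. MDA-MB-231 and HCT116 lie to the right for most members, while ABCA1 at the top has the reverse order.

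The members' medians depended on how arrays were normalized in 1 line more than in the others. Set against the median of all genes of the same array, the members lay at -0.37 with siRNA 1 and -0.20 with siRNA 2, and under median centring at -0.09 and -0.04. With miR-490-5p the value was -0.38 and, under median centring, -0.24, with 28 of 36 members still below 0. With miR-490-3p it was 0.08 and, under median centring, 0.22. The order of the miR-490 strands was thus kept in all 5 settings plotted, while the distance of the siRNA arrays from 0 was not.

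**Figure D5:**
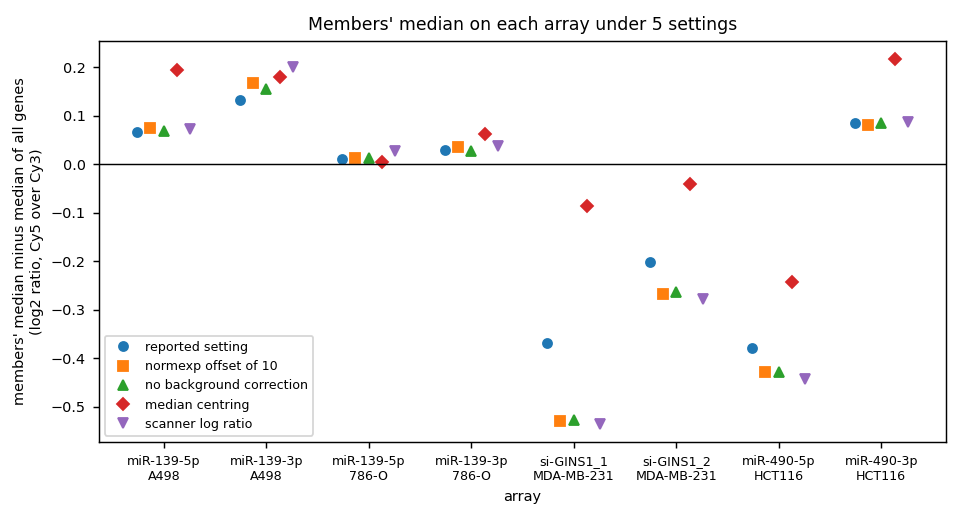
Median log2 ratio of the members minus that of all genes, on each array (horizontal axis), under the reported setting and 4 alternatives (symbols). The miR-490-5p and si-GINS1 arrays lie below 0 in every setting, with the si-GINS1 arrays nearest to 0 under median centring, at -0.09 and -0.04.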

How the data were processed

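Per the file headers, the authors processed 1 slide of 8 two-colour arrays with Agilent Feature Extraction 11.5.1.1, design annotation on hg19. The deposited intensity columns are spot means and local background medians of both dyes, in linear units before any normalization. The deposited log10 ratio per spot, which the table of values repeats (largest difference 0), served as an alternative, the scanner log ratio, in log2 units.

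Of 62976 spots, 2075 were controls, and between 112 and 194 an array were left out as outliers. Background was corrected by normexp (offset 50) and ratios normalized by loess within arrays in limma 3.58.1 (R 4.3.3), and the spots of a probe were averaged. The brightest probe stood for a gene. The offset pulls dim ratios toward 0, and loess assumes that most genes of a given brightness do not change. A probe had to exceed background clearly in 1 channel or both on every array used, and was then tested by lmFit and eBayes in 1 fit of 8 arrays, against 0 for each group, with Benjamini-Hochberg adjustment. Such a test leaves out the spread of the mock. Mock levels were quantile-normalized Cy3, with a bound from the lowest signal above background where a line was dim. Other tools were Python 3.11.15, numpy 2.4.6, pandas 2.3.3 and matplotlib 3.10.9. The fits were tested on simulated data.

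The members and gene lists were chosen with earlier results of these data known. Values are given on every array for members called, members at or beyond 1 log2 unit on an array, and SREBF1, SREBF2, SCAP, INSIG1, FASN, SCD, HMGCS1, SQLE, ABCA1, ABCG1 and MYLIP. Other list genes are named only where called or at or beyond 1 log2 unit. The miR-139 arrays pair by cell line, by the labels, and same-line deviations had a correlation of 0.0753 over 22174 probes. Alternatives were the offset, no background correction, median centring, the scanner log ratio, filters, the median over probes, dye bias removed by the other lines' arrays, the cell line as a block, fewer arrays in the fit and leaving out each array. Exon and untranslated region boundaries of probes were not used here. Every column in the table of values found a sample. The result of 1 further gene list is not reported here.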

Additional observations from a re-analysis of the deposited data

Results flagged for a closer look

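On the 4 line means, 1 member stood apart by Dixon's criterion for 4 values: SC5D, at -0.25 in MDA-MB-231. It was dim in 786-O and well above background on 5 arrays. Chance marks about 1 in 20 of such groups. The following have all arrays of a line above 0 and all those of another below it, and these differences were not tested. The members' median was higher by 0.38 in A498 than in MDA-MB-231, and by 0.30 in 786-O than in MDA-MB-231. Single members were kept where each of the 4 arrays was at least 2 SD of the mock channels away from 0. DHCR7 was higher by 1.09 in 786-O than in MDA-MB-231. SCD was higher by 1.07 in A498 than in HCT116. LPIN1, a phosphatidate phosphatase, was higher by 0.69 in A498 than in MDA-MB-231 and by 0.53 in A498 than in HCT116. A second LPIN1 probe, well above background on all 8 arrays, did not meet the rule. It read 0.07 (5p strand) and -0.06 (3p strand) in A498, on both sides of 0. In HCT116 it read -0.04 and -0.12 in the same order, which overlaps A498. In MDA-MB-231 it read -0.38 (siRNA 1) and -0.43 (siRNA 2), below both A498 arrays. No share of all genes meeting these rules is given.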

How the results depend on the processing

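Members called with si-GINS1 numbered 4 as reported, 2 under median centring, 0 with the scanner log ratio and 0 with only the si-GINS1 arrays in the fit, and between 12 and 24 when 1 siRNA array was left out. For MDA-MB-231, HCT116 and 786-O against the other lines the count of 0 changed in some fits without 1 array. Each such fit keeps a single array of 1 line, so no count is given. At or beyond 1 log2 unit with miR-490-5p were 2 members as reported, 6 with an offset of 10, 5 without background correction and 7 with the scanner log ratio, and with miR-490-3p 1 as reported and 2 with the scanner log ratio. For miR-490-3p minus miR-490-5p the count of 2 was 4 with an offset of 10, 4 under median centring and 6 with the scanner log ratio, and for siRNA 2 minus siRNA 1 the count of 4 was 7 under median centring. ACACA with si-GINS1 turned from -0.31 to 0.18 under median centring. With the cell line as a replicate block, 0 members were called for either strand of miR-139 and for the strands against each other, as without it, while the 3 calls over all genes for miR-139-5p became 0. The counts of members called by limma for the miR-139 strands, for A498 and for transfection over 4 lines stayed at 0 in every alternative run. By the rule of size, miR-139-5p in A498 went from 0 to 1 member under median centring (INSIG1) and 2 with the scanner log ratio (ABCG1 and INSIG1), and miR-139-3p in A498 to 2 with the scanner log ratio (ABCG1 and STARD4). With siRNA 1 the 3 members became 4 under median centring and 5 with the scanner log ratio, and with siRNA 2 the 2 became 0 and 3. The mock range was met by 26 to 32 members. Causes of these changes were not tested. The small number of arrays, and signal near background for TM7SF2, SC5D and ABCG1 in the renal lines, limit what could be detected.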
